A study of Mus musculus with 477 samples.

Results

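Milk-secreting cells move phosphate, nucleosides, chloride, amino acids and iodide across their membranes with dedicated carriers, and 6 genes for such carriers are described here in single mammary cells. They were chosen by name from the 21004 genes of the count table, and all 6 had reads. Slc34a2 encodes a sodium-phosphate cotransporter, Slc28a3 a concentrative nucleoside transporter and Slc12a2 the sodium-potassium-chloride cotransporter. Slc7a5 encodes the light chain and Slc3a2 the heavy chain of a heterodimeric exchanger of large neutral amino acids, and Slc5a5 encodes the sodium-iodide symporter. In the mammary gland, pregnancy hormones and prolactin turn part of the luminal epithelium into alveolar secretory cells. Other luminal cells carry estrogen, progesterone and prolactin receptors and are called hormone-sensing.

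The study profiled 477 cells on microfluidic chips, 312 sorted luminal cells from 7 mice and 165 sorted tumor cells from 4 mice, in 10 groups. All mice were females on a mixed C57BL/6 and 129/Sv background with the ROSA mT/mG reporter and MMTV-Cre, which is active in mammary epithelium among other tissues, and the luminal mice were 3 to 4 months old. The Br genotype was Brca1 fl/fl, the 53 genotype was Trp53 fl/+ and Br53 was both, so every mouse carried Cre and at least 1 floxed gene. Luminal cells were sorted as CD24-high, CD29-low and GFP-positive, the last marking cells in which Cre had acted, and tumor cells as CD24-positive. Names begin with v for virgin or p for pregnant (day 12.5) and contain L for luminal or T for tumor. The groups were vBrL, vBr53L, v53L, pBrL, pBr53L, p53L, BrT1, BrT2, Br53T1 and Br53T2, each 1 mouse except pBrL with 2 (pBrL-1 and pBrL-2). The mouse was the replicate, and its level is given in CPM, the reads of the gene per 1000000 reads summed over the cells of that mouse.

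Summed depth per mouse was 40338926 to 115827852 reads, with 170209 to 3550564 reads per cell. Luminal markers (Krt8, Krt18, Krt19, Epcam, Cdh1 and Cd24a) summed to 8660 to 13700 CPM in the luminal mice and to 846 CPM in BrT1, against 4669 to 6578 CPM in the other tumors. BrT1 also had 4955 CPM of fibroblast markers, and Br53T2 had 5231 CPM of basal markers. That sum in BrT1 was mostly Dcn (4356 CPM), Col1a2 (466 CPM) and Pdgfra (105 CPM), and Lum had no read. In virgin luminal mice, Dcn alone was at 176 to 712 CPM, against 0.026 to 25.4 CPM in pregnant mice, while Col1a1, Col1a2, Col3a1, Lum and Pdgfra were at 0.606 CPM or less in the virgin mice. The part of these cell populations in the differences below was not tested. Genotype and chip cannot be told apart. Virgin and pregnant cells shared a chip in the Br53 and in the 53 genotype, and tumor and luminal cells shared a chip in Br53T2 and pBrL-2.

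The study disrupted Slc34a2 and Slc28a3 with guide RNAs, having picked them partly from these cells, so their low tumor levels are not independent evidence. The guides are shown because they fix where in each gene the disruption was aimed, with the 3 bases of the adjacent motif not included and no part capitalised:
Slc34a2 guide: cataagcgccacgatcgtgt
Slc28a3 guide: caggcagatcacgattgaac
On mm10 the first lies at chr5:53061428-53061447, in the coding part of exon 6 of 13 of Slc34a2, on the minus strand. The second lies at chr13:58582675-58582694, in the coding part of exon 3 of 18 of Slc28a3, on the minus strand.

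The promoters of these 2 genes are shown because both had their lowest levels in tumors. RefSeq gives 250 bases before and 50 after the start on GRCm38.p6, with capitals for the bases from the start on. They lie at chr5:53049103-53049402, plus strand, and chr13:58610828-58611127, minus strand.
Slc34a2 promoter: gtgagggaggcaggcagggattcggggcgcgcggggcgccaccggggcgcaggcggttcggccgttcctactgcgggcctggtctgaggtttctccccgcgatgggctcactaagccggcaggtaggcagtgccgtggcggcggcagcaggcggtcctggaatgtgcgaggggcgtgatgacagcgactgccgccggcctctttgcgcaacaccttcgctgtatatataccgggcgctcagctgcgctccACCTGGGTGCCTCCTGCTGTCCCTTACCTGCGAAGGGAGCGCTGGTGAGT
Slc28a3 promoter: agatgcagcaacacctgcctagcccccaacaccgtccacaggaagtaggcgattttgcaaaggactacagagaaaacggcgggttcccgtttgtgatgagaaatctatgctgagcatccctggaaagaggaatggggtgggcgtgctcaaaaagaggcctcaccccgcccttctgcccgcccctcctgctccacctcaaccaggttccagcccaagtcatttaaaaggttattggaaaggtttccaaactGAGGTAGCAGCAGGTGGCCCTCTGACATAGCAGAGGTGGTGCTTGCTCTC
The GC content was 68.7% for Slc34a2 and 54.7% for Slc28a3. On both strands, neither window held the STAT motif TTCNNNGAA, the TATA sequence TATAAA or the amino acid response motif TGATGNAA, which were present in 8.3%, 13.6% and 3.97% of 32851 mouse promoters of this length. The windows of Slc3a2 and Slc5a5 did not hold these letters either. The search covered these exact letters alone, and the Slc34a2 window did hold tatatata before the start, which was not counted.

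Per kilobase of exon, the scale on which genes can be compared, Slc28a3 had the highest median level over the luminal mice, 172 CPM per kilobase. Slc3a2 followed at 94.7, Slc12a2 at 16.3, Slc34a2 at 9.08, Slc7a5 at 8.93 and Slc5a5 at 0.37 CPM per kilobase. In the 4 tumors the medians were 1.18 for Slc28a3, 144 for Slc3a2, 21.8 for Slc12a2, 0.138 for Slc34a2, 12.3 for Slc7a5 and 1.6 for Slc5a5. The 6 genes did not share 1 pattern over stage and tumor, as the plot of levels by mouse shows.

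**Figure D1:**
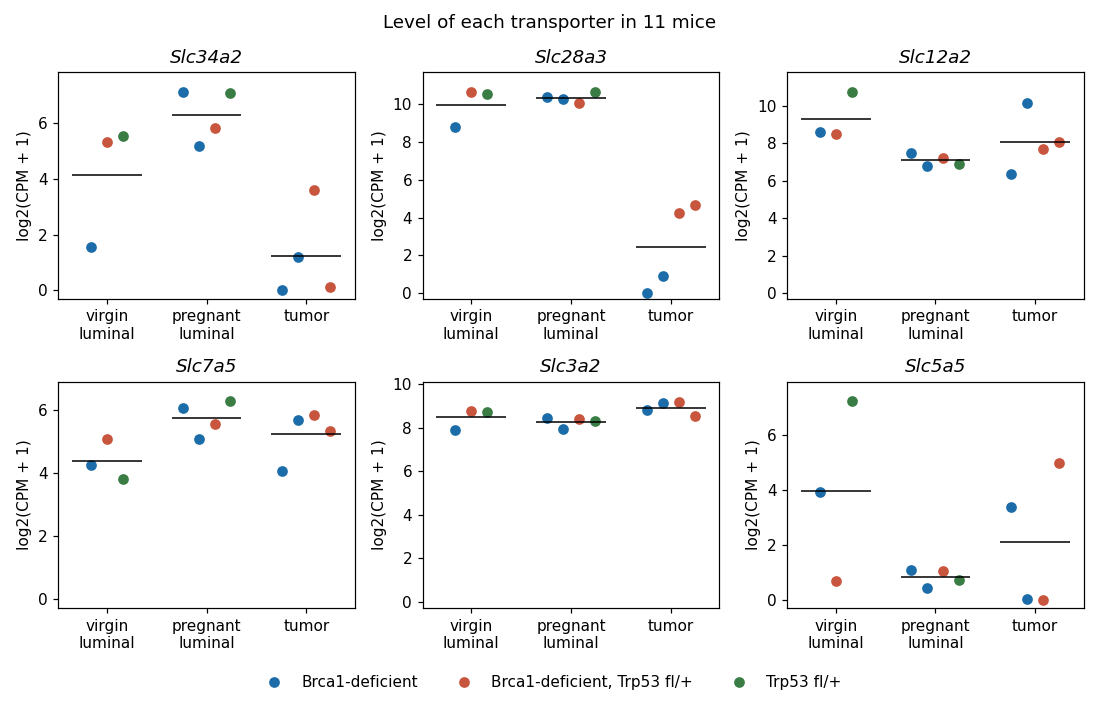
Level of each gene as log2(CPM + 1) in virgin luminal, pregnant luminal and tumor mice, with 1 point per mouse coloured by genotype and a line at the mean of the points. Slc28a3 is at 442 CPM or more in every luminal mouse and at 24.6 CPM or less in every tumor, whereas the Slc3a2 points of the 3 stages lie between 237 and 591 CPM.

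Tumors were set against Brca1-deficient luminal mice to ask which transporter levels differ in tumors of that genotype. Slc28a3 and Slc34a2 had far lower levels in the tumors, Slc3a2, Slc12a2 and Slc5a5 had higher mean levels, and Slc7a5 nearly the same level. None of the 6 passed the edgeR quasi-likelihood test at a Benjamini-Hochberg adjusted p of 0.05, where 0.609% of 12978 genes did. At an unadjusted p under 0.05 there were 2 of 6, against 13.8% of all genes. DESeq2 called 2 of 6, Slc28a3 and Slc34a2, against 6.44% of genes, and limma on mean CPM over cells called 1 of 6, Slc28a3, against 2.71%.

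Slc28a3 was at 442 CPM in vBrL, 1606 in vBr53L, 1358 in pBrL-1, 1255 in pBrL-2 and 1091 in pBr53L. The 4 tumors had 0 (BrT1), 0.862 (BrT2), 17.8 (Br53T1) and 24.6 CPM (Br53T2). The groups did not overlap, which held for 2.51% of genes in this direction. The mean was 10.8 ± 12.3 CPM (SD, n = 4) in tumors and 1150 ± 438 CPM (SD, n = 5) in luminal mice, a log2 change of -6.91 with an SE of 1.64 and an adjusted p of 0.0827 in edgeR. With 1 mouse left out, the edgeR adjusted p was 0.0498 without BrT1, the tumor with few luminal marker reads, and 0.102 to 0.154 without any other mouse. It was 0.454 against the virgin and 0.16 against the pregnant mice alone, and 0.0364 against all 7 luminal mice. On the shared chip, Br53T2 had 24.6 and pBrL-2 1255 CPM.

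In BrT1 no Slc28a3 read was found, where 3 reads would be 0.0331 CPM. The reads of Br53T1 came almost entirely from 1 cell, which held 99.8% of them, and without that cell the level was 0.0379 CPM. In Br53T2 the most highly expressing cell held 38.1% of the reads, and the level without it was 15.6 CPM. Slc28a3 reads in tumors were therefore in few cells, whereas in the luminal mice the top cell held between 5.93% and 28.2%.

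Slc34a2 was at 1.96 CPM in vBrL, 39.4 in vBr53L, 139 in pBrL-1, 35.5 in pBrL-2 and 55.8 in pBr53L. BrT1 had 0, BrT2 1.3, Br53T1 11.2 and Br53T2 0.0771 CPM. The groups overlapped through vBrL, which lay below Br53T1. The log2 change was -4.28 with an SE of 1.78 (edgeR adjusted p = 0.315). It was -6.91 without Br53T1, -3.61 without pBrL-1 and -2.94 against the virgin luminal mice alone. In Br53T1, 97.7% of the Slc34a2 reads lay in 1 cell, and without it that tumor was at 0.265 CPM.

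Slc12a2 ranged widely over the tumors, from 80.6 CPM (BrT1) and 207 CPM (Br53T1) through 269 CPM (Br53T2) to 1120 CPM (BrT2). The luminal mice of this comparison lay between 110 and 393 CPM, inside the tumor range. Its log2 change was 0.76 with an SE of 0.71 (edgeR adjusted p = 0.688). Without BrT2 the log2 change was -0.57, so the direction rested on that tumor.

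The amino acid exchanger did not follow Slc28a3. Slc3a2 was at 449, 566, 591 and 369 CPM in BrT1, BrT2, Br53T1 and Br53T2, and at 237 to 444 CPM in the luminal mice. Its log2 change was 0.48, with a 95% interval from -0.12 to 1.08 and an edgeR adjusted p of 0.532. Slc7a5 was at 15.8, 50.9, 57.3 and 40 CPM in the same tumors and at 18.2 to 65.9 CPM in the luminal mice. Its log2 change was -0.06, with a 95% interval from -1.06 to 0.94 (edgeR adjusted p = 0.982), and the sign turned in several alternative fits.

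Slc5a5 had 30.8 CPM in Br53T2, 9.33 CPM in BrT1, 1 read (0.02 CPM) in BrT2 and none in Br53T1. A single cell held 98.1% of the BrT1 reads, whereas 9 of 51 cells of Br53T2 had a read at matched depth. Brca1-deficient luminal mice had 0.363 to 14.2 CPM, and the log2 change was 1.36 with an SE of 1.88 (edgeR adjusted p = 0.804), but -0.35 without Br53T2 and 3.45 without vBrL. The tumor effect was also allowed to differ between the Br and Br53 genotypes. The largest difference was that of Slc28a3, 4.98 on the log2 scale with an SE of 1.95 (edgeR adjusted p = 0.983), and the other 5 had higher unadjusted p.

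**Figure D2:**
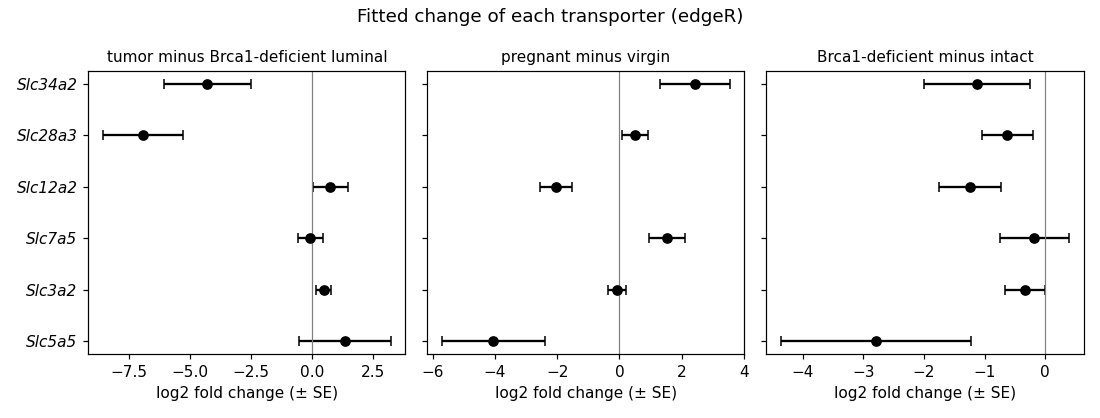
Log2 fold change with its SE for each gene in the 3 comparisons, from edgeR fits over all genes. The lowest points are Slc28a3 (-6.91) and Slc34a2 (-4.28) in tumors and Slc5a5 (-4.05) in pregnancy, and none of the 18 changes passed the adjusted threshold.

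Pregnant luminal mice were set against virgin ones, with genotype in the fit, to ask how the carriers differ at mid-pregnancy. Mean levels of Slc34a2 and Slc7a5 were higher in pregnant mice, those of Slc12a2 and Slc5a5 lower, and those of Slc28a3 and Slc3a2 close. None of the 6 passed the edgeR test, where 0.0159% of 12615 genes did, that is Fgfr2 and Abcg1. At an unadjusted p under 0.05 there were 3 of 6, namely Slc12a2, Slc7a5 and Slc5a5, against 9.74% of genes. DESeq2 called Slc12a2 and Slc5a5, against 8.21% of genes, and limma called none, against 0.317%. With no filter on low counts edgeR called 3 of the 6, Slc34a2, Slc12a2 and Slc5a5, among 366 genes.

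Virgin levels of Slc12a2 were 393 CPM (vBrL), 364 CPM (vBr53L) and 1716 CPM (v53L). It was at 178 CPM in pBrL-1, 110 in pBrL-2, 150 in pBr53L and 120 in p53L. Every pregnant mouse lay below every virgin mouse, which held for 5.58% of genes in that direction. The log2 change was -2.04 with an SE of 0.51 (edgeR adjusted p = 0.314), or -1.36 without v53L or p53L. It was -1.27 within the chip of Br53 and -3.83 within that of 53 on the log2(CPM + 1) scale. Both stages had reads in most cells at matched depth, 68.6% to 84.6% of virgin and 66.7% to 80.3% of pregnant cells.

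Markers of hormone-sensing cells moved with Slc12a2. All 5 of them (Prlr, Esr1, Pgr, Prom1 and Ly6a) had non-overlapping lower levels in pregnant mice, against 5.58% of all genes. Their sum was 707 to 4829 CPM in virgin and 218 to 323 CPM in pregnant mice. Cells with a Pgr read, at 100000 reads per cell, numbered 12 of 35 (vBrL), 3 of 39 (vBr53L) and 21 of 40 (v53L), but 1 or 2 in each pregnant mouse. In the remaining cells, Slc12a2 was at 258 CPM (vBrL), 310 CPM (vBr53L) and 617 CPM (v53L) in virgin mice, and at 176, 113, 127 and 119 CPM in pBrL-1, pBrL-2, pBr53L and p53L. The groups still did not overlap, with a log2 change of -1.47 and an SE of 0.38 (edgeR adjusted p = 0.464). A cell without a Pgr read may still carry the transcript. In these remaining cells Prlr was still lower in pregnant mice, at 138 to 214 CPM against 339 to 855 CPM in virgin mice. Esr1 overlapped there, at 39.9 to 49.2 CPM in pregnant and 48.7 to 226.5 CPM in virgin mice. Leaving out cells with a Pgr read thus did not level Prlr between the stages.

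Virgin levels of Slc5a5 were 14.2 CPM (vBrL), 0.618 CPM (vBr53L) and 147 CPM (v53L). The pregnant mice were at 1.13 CPM (pBrL-1), 0.363 (pBrL-2), 1.08 (pBr53L) and 0.654 (p53L). The stages overlapped through vBr53L. The log2 change was -4.05 with an SE of 1.66 (edgeR adjusted p = 0.498). It ranged from -5.8 (without vBr53L) to -2.58 (without p53L) when 1 mouse was left out, and was -7.48 with 30 cells per mouse. The hormone-sensing markers given for Slc12a2 were lower in pregnant mice here as well. In cells without a Pgr read the log2 change of Slc5a5 was -3.73 with an SE of 2.38 (edgeR adjusted p = 0.699), and the part of these markers in the difference was tested no further. In pregnant mice 1 or 2 cells of each had a read at matched depth, and all 131 reads of pBrL-1 came from 1 cell.

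For Slc34a2 the virgin mice vBrL, vBr53L and v53L had 1.96, 39.4 and 45.5 CPM, against 139, 35.5, 55.8 and 135 CPM in pBrL-1, pBrL-2, pBr53L and p53L. The stages overlapped, since pBrL-2 lay below vBr53L and v53L, and the log2 change was 2.43 with an SE of 1.12 (edgeR adjusted p = 0.557). It was 1.09 without vBrL, 1.12 with chip in place of genotype, 3.72 without vBr53L or pBr53L and 3.17 without v53L or p53L. With 30 cells per mouse it was 4.04 (edgeR adjusted p = 0.513), and in cells without a Pgr read 1.77 with an SE of 1.15 (edgeR adjusted p = 0.702). The virgin levels rested on few cells. In v53L 1 cell held 93.2% of the reads and in vBr53L 69%, whereas in the pregnant mice the top cell held 17.9% to 36%. With the top cell of every mouse left out, a choice made because of these values and therefore no test of the difference, the virgin mice were at 1.09, 12.7 and 3.18 CPM and the pregnant mice at 113, 23.5, 46.1 and 112 CPM. Reads at matched depth were found in 14.3% to 20% of virgin and 26.3% to 52.1% of pregnant cells. Without thinning the shares overlapped, at 48.6% to 72.5% of virgin and 57.75% to 73.6% of pregnant cells.

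For Slc7a5 the virgin mice vBrL, vBr53L and v53L had 18.2, 32.7 and 13.2 CPM, against 65.9, 33.1, 46.6 and 77.1 CPM in pBrL-1, pBrL-2, pBr53L and p53L. The pregnant mice all lay above the virgin ones, by a margin of 33.1 against 32.7 CPM, and 6.32% of genes did so. The log2 change was 1.54 with an SE of 0.58 (edgeR adjusted p = 0.479). That separation was lost in cells without a Pgr read, where virgin levels were 27.1 (vBrL), 35.5 (vBr53L) and 28.4 CPM (v53L) and pregnant levels 67.5 (pBrL-1), 34 (pBrL-2), 47.5 (pBr53L) and 78.7 CPM (p53L). The log2 change in those cells was 0.90 with an SE of 0.52 (edgeR adjusted p = 0.667). The hormone-sensing markers given for Slc12a2 were lower in pregnant mice, opposite to Slc7a5, and their part in its difference was tested no further. In all cells, the share with a read was 15% to 30.8% in virgin and 42.1% to 69.4% in pregnant mice. Its partner Slc3a2 was in 68.6% to 94.9% of virgin and 88.7% to 94.7% of pregnant cells, and its log2 change was -0.08 with a 95% interval from -0.64 to 0.48 (edgeR adjusted p = 0.959).

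The light chain was the less abundant of the pair in every mouse, with 3.55 to 20.8 CPM per kilobase for Slc7a5 and 67.2 to 167 for Slc3a2. The ratio of Slc3a2 to Slc7a5 CPM, not scaled by length, was 13 to 32.6 in virgin and 4.1 to 7.54 in pregnant mice. Of the 43 cells of pBrL-1 with a Slc7a5 read, 37 also had a Slc3a2 read, as had 63 of all 71 cells of that mouse. In v53L all 6 cells with a Slc7a5 read had a Slc3a2 read, as had 37 of all 40 cells.

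Slc28a3 was already high in virgin mice, with 442 CPM (vBrL), 1606 CPM (vBr53L) and 1486 CPM (v53L). The pregnant mice pBrL-1, pBrL-2, pBr53L and p53L had 1358, 1255, 1091 and 1614 CPM. The log2 change was 0.49 with a 95% interval from -0.32 to 1.3 (edgeR adjusted p = 0.766), and without vBrL it was -0.17. Cells of the virgin v53L mouse were more uneven than those of p53L. The median cell of v53L had 100 CPM and its upper quartile 3125 CPM, whereas the median cell of p53L had 1276 CPM. Reads at matched depth were in 60% of v53L cells and 91.7% of p53L cells.

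**Figure D3:**
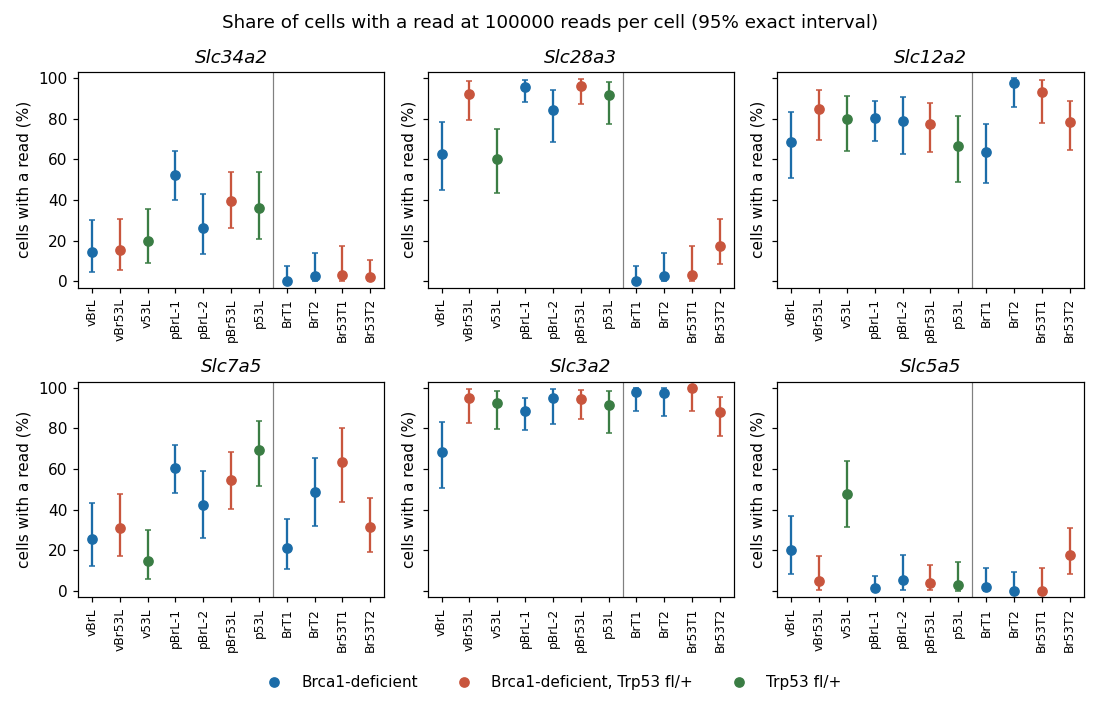
Percentage of cells with at least 1 read of each gene after thinning every cell to 100000 reads, per mouse, with 95% exact binomial intervals that cover counting error only. Slc34a2 is at 26.3% to 52.1% in pregnant mice and at most 3.33% in tumors, and Slc28a3 is at 60% or more in luminal mice and does not pass 17.6% in tumors.

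At matched depth, 0 of 47 BrT1 cells had a read of Slc34a2 or of Slc28a3, which allows a share of up to 6.38% by the limit of 3 cells and up to 7.55% by the exact interval. Reads here are not counted by molecule, so these limits and the intervals cover counting error only.

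Brca1-deficient luminal mice were set against those with intact Brca1, with stage in the fit. Both intact mice were Trp53 fl/+, whereas the deficient mice vBrL, pBrL-1 and pBrL-2 were not, so the arms also differ in Trp53. None of the 6 genes passed the edgeR test, where 0% of 13709 genes did, and 1 of 6 had an unadjusted p under 0.05, against 5.97%. DESeq2 called none of the 6, against 3.98% of genes, and limma none, against 0%. Slc12a2 had the lowest unadjusted p, with a mean of 239 CPM in the 5 deficient and 918 CPM in the 2 intact mice, a log2 change of -1.24 and an SE of 0.51 (edgeR adjusted p = 0.778). That mean rested on v53L, without which the log2 change was 0.07, while without p53L it was -2.29 (edgeR adjusted p = 0.0394). Each of these 2 fits left 1 mouse in the intact arm, which was assumed to vary like the others. Slc5a5 likewise had a log2 change of -2.79 with v53L and 0.19 without it. The hormone-sensing markers summed to 4829 CPM in v53L and to 218 to 1571 CPM in the other 6 luminal mice. In cells without a Pgr read, the log2 change was -0.72 with an SE of 0.38 for Slc12a2 (edgeR adjusted p = 0.728) and -0.997 with an SE of 1.90 for Slc5a5 (edgeR adjusted p = 0.9). The part of these markers in the differences was tested no further.

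Only pBrL had 2 mice, so it alone gives the spread within a group. The ratio of its higher to its lower mouse was 3.93 for Slc34a2, 1.08 for Slc28a3, 1.62 for Slc12a2, 1.99 for Slc7a5, 1.4 for Slc3a2 and 3.11 for Slc5a5. When the 10 groups were ordered by level, all 9 neighbouring pairs of Slc7a5 and of Slc3a2 differed by no more than this ratio, as did 8 of 9 of Slc12a2, where BrT2 stood above vBrL by more. For Slc34a2 6 of 9 neighbouring pairs were within the ratio, for Slc5a5 5 of 9 and for Slc28a3 2 of 9.

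Within v53L, the virgin mouse with the most Pgr reads, carrier levels differed between cells with and without a read of Pgr, the progesterone receptor gene. Cells with a Pgr read (21) had 2659 CPM of Slc12a2, against 617 CPM in the 19 without one. Slc5a5 was at 252 CPM in the former and 25.4 CPM in the latter. Slc28a3 was at 452 against 2690 CPM and Slc7a5 at 0.0922 against 28.4 CPM, although 1 cell held 64.2% of the Slc7a5 reads of this mouse. The split is not given for Slc34a2, since 1 cell without a Pgr read held 93.2% of its reads. Csn2, the gene of beta-casein, was at 2393 against 17500 CPM. In vBrL, with 12 cells with a Pgr read, Slc12a2 was at 664 against 258 CPM and Slc7a5 at 0.477 against 27.1 CPM. Slc28a3 was at 522 against 402 CPM there, although 1 cell held 28.2% of its reads and its rho with Pgr over the 35 cells was -0.271. Slc5a5 was at 14.7 against 13.9 CPM, and 1 cell without a Pgr read held 61.8% of its reads in vBrL. These are pooled values within single mice, with no test, and in v53L median depth was 1051000 and 988300 reads per cell.

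**Figure D4:**
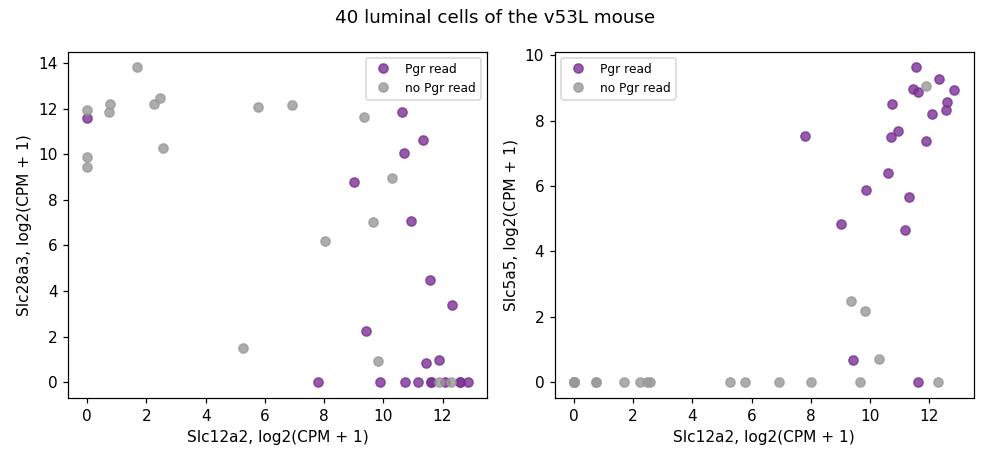
Slc28a3 (left) and Slc5a5 (right) against Slc12a2 in the 40 luminal cells of v53L, as log2(CPM + 1), with cells that had a Pgr read in purple. In this mouse, cells high in Slc12a2 tend to be high in Slc5a5 (rho 0.77) and low in Slc28a3 (rho -0.733), the latter with the opposite sign in vBr53L (rho 0.226).

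Over these 40 cells, which share a library preparation and chip, Spearman's rho of Slc12a2 was 0.773 with Pgr, 0.818 with Prlr and -0.712 with Csn2. Slc28a3 had a rho of 0.693 with Csn2 and -0.677 with Prlr. In vBrL and vBr53L the rho of Slc12a2 with Prlr was 0.374 and 0.41 and that of Slc5a5 with Pgr 0.345 and 0.54, the last from 3 cells with a Slc5a5 read. The sign turned in vBr53L for other pairs. Slc12a2 with Csn2 had a rho of -0.164 in vBrL and 0.196 in vBr53L, and Slc28a3 with Slc12a2 -0.478 and 0.226. In the 4 pregnant mice the rho of Slc34a2 with Csn2 was 0.24 to 0.54, and that of Slc28a3 with Csn2 was 0.142 to 0.486. Slc34a2 and Slc28a3 had a rho of 0.203 to 0.534 with each other in pregnant mice.

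Over the 11 mice, the genes most like each carrier were sought among genes averaging 10 CPM or more, by Pearson's r of log2(CPM + 1), given as a description. Slc28a3 was most like Csn1s2a (r = 0.971, rho = 0.745), Csn2 (r = 0.97, rho = 0.791) and Chchd10 (r = 0.96, rho = 0.755), the first of which also encodes a casein. Slc34a2 was most like Ica1 (r = 0.934), Mpc1 (r = 0.93), a subunit of the mitochondrial pyruvate carrier, and Gm2a (r = 0.916), the GM2 ganglioside activator. Slc12a2 was most like Fgg (r = 0.914), Chil1 (r = 0.912) and Gfpt2 (r = 0.909), of which Fgg encodes a fibrinogen chain. Slc7a5 was most like Coq3 (r = 0.894), Oxct1 (r = 0.891) and the amino acid transporter Slc6a14 (r = 0.885). Slc3a2 was most like Arpc1b (r = 0.904), Grtp1 (r = 0.903) and Ahsa2 (r = 0.892), and Slc5a5 like Mum1l1 (r = 0.929), Malsu1 (r = 0.909) and Clip4 (r = 0.906). Among the 6 themselves, Slc34a2 and Slc28a3 had the highest r, 0.831.

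The phosphate and nucleoside transporter lists had none of 3 tested genes past the threshold in either comparison. Slc34a1 and Slc34a3, the other sodium-phosphate cotransporters of that family, and the nucleoside transporters Slc28a1 and Slc28a2 were at 0.00993 CPM or less in every luminal mouse and at 0.429 CPM or less in every tumor. The phosphate carrier Slc20a1 was present throughout, with 227 to 348 CPM in virgin mice, 588 to 849 CPM in pregnant mice and 353 to 2373 CPM in tumors. Its stages did not overlap, which held for 6.32% of genes in this direction. The log2 change of Slc20a1 in pregnancy was 1.35 with an SE of 0.27 (edgeR adjusted p = 0.216). In tumors it was 0.79 with an SE of 0.54 (edgeR adjusted p = 0.562). Its relative Slc20a2 was at 15.5 to 52.1 CPM in tumors and 1.63 to 8.82 CPM in luminal mice without Brca1. These did not overlap, which held for 650 of 12978 genes in this direction. The log2 change of Slc20a2 in tumors was 2.86 with an SE of 0.67 (edgeR adjusted p = 0.0802). The equilibrative nucleoside transporter Slc29a1 was at 121 to 701 CPM in tumors and at 65 to 101 CPM in luminal mice, and its log2 change in tumors was 1.74 with an SE of 0.53 (edgeR adjusted p = 0.175).

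Of the other transport lists, the chloride, sodium and potassium list had 1 gene of 11 tested that passed in tumors. This was Slc12a4, a potassium-chloride cotransporter, which rose to 6.24 to 43.5 CPM in the tumors from 0 to 0.0866 CPM in luminal mice without Brca1 (edgeR adjusted p = 0.0362). Outside that comparison, v53L had 3.05 CPM of it. The amino acid transporter list had none of 11 past the threshold in either direction in tumors, with a median log2 change of 0.26, against 0.06 over all genes. In pregnancy it also had none of 11, with a median of 0.3 against 0.12 over all genes. Slc6a14 had 12.4 to 58.4 CPM in pregnant and 0 to 4.37 CPM in virgin mice, and Slc7a2, a carrier of cationic amino acids, had 0.0432 to 7.28 against 86.5 to 342 CPM (edgeR adjusted p = 0.296 and 0.204). Slc7a1 was also lower without overlap, at 25 to 38.4 CPM in pregnant and 42.6 to 83.7 CPM in virgin mice (edgeR adjusted p = 0.597).

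The amino acid response list had none of 9 past the threshold in either comparison. Of the 9, 2 had non-overlapping lower levels in pregnant mice, against 5.58% of all genes. Nupr1, a stress-induced nuclear protein, was at 81.2 to 263 CPM in pregnant and 507 to 5152 CPM in virgin mice (edgeR adjusted p = 0.423). Atf4, a transcription factor of that response, was at 339 to 439 against 533 to 627 CPM (edgeR adjusted p = 0.54). In the list for iodide and vitamin transport none of 4 tested genes passed in tumors or pregnancy, and Slc26a4, another anion exchanger, had no read. Sugar transport (4 tested), calcium and zinc transport (8 tested) and xenobiotic and carnitine transport (3 tested) also had none in these comparisons. Within them, Slc5a1, a sodium-glucose cotransporter, was at 0 to 4.9 CPM in tumors, against 13.4 to 105 CPM in luminal mice without Brca1 (edgeR adjusted p = 0.141). Abcg2, which carries riboflavin and xenobiotics into milk, was at 156 to 318 CPM in pregnant and 18.2 to 70.4 CPM in virgin mice (edgeR adjusted p = 0.216).

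Milk genes gave the scale for these values. Of 6, Cd36, a fatty acid carrier, and Glycam1, a milk mucin, passed in tumors. Cd36 was at 0 to 0.0773 CPM in tumors and 7.31 to 1763 CPM in the luminal mice of this comparison, those deficient in Brca1 (edgeR adjusted p = 0.0177), and Glycam1 at 0 to 0.0881 and 5.96 to 5044 CPM in the same mice (edgeR adjusted p = 0.0333). The virgin v53L mouse, outside that comparison, had 0.471 CPM of Cd36 and none of Glycam1. In pregnancy none of the 6 passed, although Csn2 had 37770 to 52120 CPM in pregnant and 9372 to 11620 CPM in virgin mice (edgeR adjusted p = 0.0983). The prolactin pathway list had none of 7 past the threshold in either comparison. Its Elf5, a regulator of alveolar fate, overlapped, at 135 to 1063 CPM in pregnant and 5.9 to 170 CPM in virgin mice. Its Cish was higher in pregnant mice without overlap, at 72.7 to 207 against 22 to 49.2 CPM (edgeR adjusted p = 0.334). Its Prlr was lower without overlap, as given above.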

How the data were processed

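Each deposited column holds 1 cell, isolated on a Fluidigm C1 chip. The authors deposited raw read counts per gene. Per the labels and methods, reads were trimmed with Sickle and Trim Galore 0.4.1, aligned with STAR 2.5.3a to mm10 and counted with Subread 1.5.3. The gene annotation, strand setting and cell filter are not given in the sources used here, and doublets were looked for by microscope. Without a stated strand, reads of Slc34a2, Slc28a3 and Slc7a5 cannot be told from those of gene models on the opposite strand. All 477 cells were kept. Here, counts were summed per mouse, since mice and not cells are replicates, and p-values measure the spread between mice. Genes passing filterByExpr were fitted with edgeR 4.0.16 (TMM factors, quasi-likelihood test, Benjamini-Hochberg adjustment over all genes tested) in R 4.3.3, with DESeq2 1.42.0 and limma 3.58.1 as alternatives. Scripts were tested on simulated data. Shares of cells were taken after thinning to 100000 reads per cell, with exact binomial (Clopper-Pearson) intervals. Gene positions and exon lengths came from GENCODE vM21 on mm10.

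The 6 genes and all gene lists were chosen with earlier results of these data known. The text names the 6 genes in every mouse and the 3 genes most like each over the 11 mice. Of the other lists, it names genes that passed a test. It also names some, not all, genes with non-overlapping groups at 10 CPM or more in the higher mean. Otherwise it names up to 3 per list by mean level, besides the family relatives, Elf5 and Slc26a4, named after their values were seen.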

Additional observations from a re-analysis of the deposited data

Results flagged for a closer look

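Some values stood apart from the others of their group. Over the 6 genes, 24 sets of 4 to 7 mice were examined, and 3 had a mouse whose gap to its nearest neighbour was a large part of the range on the log2(CPM + 1) scale, where about 1.2 would be so by chance. The mouse was vBrL each time. The gap was 0.651 of the range for Slc34a2 and 0.698 for Slc28a3 among the 7 luminal mice, where vBrL was lowest, and 0.815 for Slc5a5 among the 5 Brca1-deficient luminal mice, where it was highest.

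For 3 genes the stages differed in opposite directions between genotypes, on the log2(CPM + 1) scale of pregnant minus virgin mice. Slc28a3 differed by 1.56 in Br, -0.56 in Br53 and 0.12 in 53. Slc3a2 differed by 0.31 in Br, -0.41 in Br53 and -0.44 in 53. Slc5a5 differed by -3.15 in Br, 0.36 in Br53 and -6.49 in 53. Each genotype had 1 virgin mouse and 1 or 2 pregnant mice, and these differences between genotypes were not tested.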

How the results depend on the processing

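Most changes of the 6 genes kept their direction and their side of the threshold. In tumors, where 79 genes and none of the 6 passed, the genes called numbered 124 with library size alone, 808 with DESeq2, 129 with no low-count filter, 352 with limma on mean CPM, 48 with 30 cells per mouse, 213 against all 7 luminal mice, 44 against pregnant and 0 against virgin luminal mice alone. Of the 6 genes, DESeq2 called 2, limma 1 and the fit against all 7 luminal mice 1. In pregnancy, where 2 genes passed (Fgfr2 and Abcg1), the genes called numbered 975 with DESeq2, 366 with no filter, 40 with limma, 1 with 30 cells per mouse, 17 without the genotype term, 42 with chip in its place and 0 in cells without a Pgr read, an alternative chosen after seeing the data. Of the 6 genes, DESeq2 called 2 and the unfiltered fit 3. For genotype, where no gene passed, 508 passed with DESeq2 and 10 with no filter. Leaving out 1 mouse at a time gave 11 to 94 genes and 0 to 1 of the 6 in tumors, 0 to 4 genes in pregnancy, and 0 to 127 genes and 0 to 1 of the 6 for genotype. Each share of cells with a read was also taken at 50000 reads per cell and with no thinning. Of these values, 38 lay outside the exact interval of the main share and 94 inside. The causes were not tested.

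Leaving out 1 mouse at a time, the tumor log2 change of Slc12a2 ranged from -0.57 (without BrT2) to 1.11, that of Slc7a5 from -0.27 to 0.21 (above 0 without BrT1, pBrL-1 or pBr53L) and that of Slc5a5 from -0.35 (without Br53T2) to 3.45. The pregnancy change of Slc28a3 ranged from -0.17 (without vBrL) to 0.97 and that of Slc3a2 from -0.37 to 0.041 (above 0 without vBr53L, v53L, pBr53L or p53L). The genotype change ranged from -2.29 to 0.074 for Slc12a2 and from -4.44 to 0.19 for Slc5a5 (both above 0 without v53L), and from -0.88 to 0.85 for Slc7a5 (above 0 without pBrL-2 or p53L). Against all 7 luminal mice, the tumor change was -0.204 for Slc12a2 and -1.53 for Slc5a5. For Slc7a5 it was 0.068 with library size alone, 0.056 with limma and 0.53 against virgin mice alone. The pregnancy change of Slc28a3 was -0.14 with chip in place of genotype. With 30 cells per mouse, the pregnancy change of Slc3a2 was 0.0095 and the genotype change of Slc34a2 was 0.499. The chip term pairs the virgin and pregnant mice of Br53 and of 53, which shared a chip, and the replicate numbers pair no mice. Arms held 2 to 5 mice, which limits the precision.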
